A study of Schizosaccharomyces pombe with 2 samples.

Results

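The genes described here serve the uptake and synthesis of B vitamins in the fission yeast Schizosaccharomyces pombe. They are the vitamin transporter genes vht1, liz1, thi9 and bsu1, the biotin synthase gene bio2, the thiamine synthesis genes nmt1, thi2 and thi4, and pho4, which encodes a thiamine-repressible acid phosphatase. The genes were chosen by name with their expression ratios on these arrays already known, so those ratios are a description and carry no test of the genes as a set. Of the 9 genes listed, 8 had a probe under the names searched, and thi2 was printed at 2 places on the array, which gave 9 features among the 4984 gene features of the array. No feature was found under SPAC17A2.01 or bsu1, and bsu1 is skipped.

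The study set a tup11,12D mutant, in which the D is read as a deletion of both genes, against WT cells on 2 spotted two-channel DNA arrays. The genes tup11 and tup12 encode related corepressors that lower transcription when brought to promoters by DNA-binding proteins. The mutant and the WT both grew in rich medium to log phase, named YES in the label of array 1, where a temperature of 30 degrees is also given. Each array carried RNA from its own preparation of both strains, with the dyes exchanged between arrays, so n = 2 in all that follows. Whether the cultures were also separate is not stated, so the error is the spread between these preparations.

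Yeasts take up B vitamins through dedicated carriers in the plasma membrane and turn them into enzyme cofactors. Thiamine is assembled from a pyrimidine and a thiazole part that are made apart and then joined, and fission yeast shuts the genes of this route off when thiamine is supplied. The nmt1 promoter, named for having no message in thiamine, is used for that reason as a switch for cloned genes. Biotin is bound to carboxylases, and pantothenate is the precursor of coenzyme A.

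Which strain each channel column holds is not written in the file headers. Averaged over spots, the local background was 1.80 in the first and 408 in the second channel of array 1, whereas on array 2 it was 753 in the first and 12.5 in the second, so the dyes had changed columns. The mutant was taken to be the first channel of either array. The sample titles put the mutant over WT, and the deposited ratios correlated with first over second channel at 0.78 and 0.95. This makes the reading likely, but the files do not state it, and all signs would turn under the other one. Median gene signals were 1340 and 2549 in the mutant channels, against 4238 and 1351 in the WT channels, and 70.1% to 79.7% of gene spots were well above background. A spot counts as such when its signal over background exceeds the 95th percentile of the 96 aceF and kdtA spots, bacterial sequences that yeast RNA should not bind. The tup11 feature (SPAC18B11.10) gave log2 ratios of 0.95 on array 1 and -0.11 on array 2, bright enough to measure in either strain, and tup12 was not analysed here. A feature named tup1, which the gene table does not assign, was lower at -2.11 ± 0.36 (SD, n = 2, limma adjusted p = 0.0005). A probe outside a deleted stretch checks nothing, and the loss of the deleted genes was not verified.

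The signals below are normalised, in arbitrary units, and comparable between strains within a feature. They are not comparable between features, because probes differ in brightness. Ratios are log2 of mutant over WT, given as the mean ± SD of the 2 arrays, with the 95% interval from the limma fit over 4838 features. Of the 9 member features 1 passed that fit at an adjusted p under 0.05, and 3.27% of all tested features did. Since the same ratios chose the genes, nothing is read from this count. The RNA came from whole cultures, so a change in every cell and a change in some of the cells cannot be told apart.

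**Figure D1:**
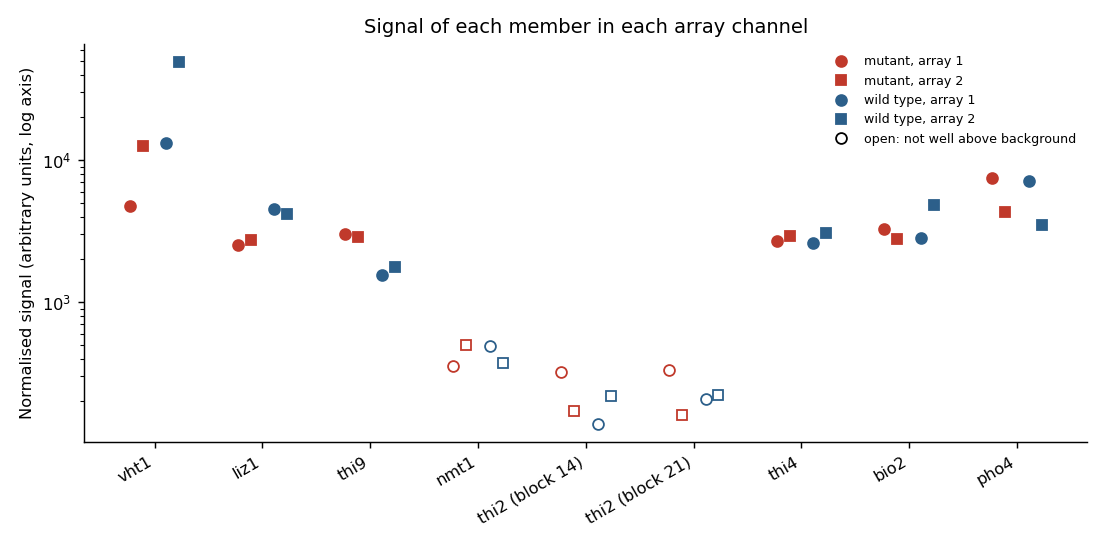
Normalised signal (arbitrary units, log axis) of each member feature in the mutant (red) and WT (blue), circles for array 1 and squares for array 2. Open symbols mark features not well above background in that strain on either array. For vht1 the mutant values are 4761 and 12590 and the WT values 13230 and 48970. All values of nmt1 and of both thi2 features are open symbols.

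The biotin transporter gene vht1 (SPAC1B3.16c), whose product carries vitamin H into the cell, was the member with the largest difference. Its signal was 4761 on array 1 and 12590 on array 2 in the mutant, against 13230 and 48970 in the WT. The arrays differed from each other by more than 2-fold within each strain. The log2 ratio was -1.47 on array 1 and -1.96 on array 2, with a mean of -1.72 ± 0.34 (95% interval -2.19 to -1.24). That corresponds to a level 3.29-fold lower in the mutant, 2.78-fold on array 1 and 3.89-fold on array 2. The feature ranked 6 from the lowest of 4838.

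Each vht1 feature consists of 2 printed spots per array, and all 4 spots were lower in the mutant. Their log2 ratios were -1.29 and -1.66 on array 1 and -1.70 and -2.22 on array 2. The spot at -1.70 had a WT signal at the scanner limit of 65535, and a channel at that limit compresses the ratio. Without that spot the mean was -1.85, in an alternative added after the data were seen. The spot at the same place on array 1 was also the weaker of its pair (-1.29 against -1.66), without saturation. Whether saturation made the difference smaller was not tested. The authors' deposited log10 values for these 4 spots were -0.42, -0.52, -0.51 and -0.73, likewise all negative.

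Liz1, a carrier of pantothenate, was lower on both arrays by a smaller amount. Its signal was 2533 and 2723 in the mutant, against 4533 and 4202 in the WT. The log2 ratios of -0.84 and -0.63 gave a mean of -0.73 ± 0.15 (95% interval -1.18 to -0.28), or 1.66-fold lower. The interval leaves out 0, as it did for 15.9% of all features, and the feature ranked 115 from the lowest without passing over all features.

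Thi9 (SPAC9.10), the thiamine transporter, stood on the other side. Its signal was 3010 and 2854 in the mutant, against 1557 and 1772 in the WT. The mean log2 ratio was 0.82 ± 0.19 (95% interval 0.37 to 1.27), or 1.76-fold higher, from 0.95 on array 1 and 0.69 on array 2. It ranked 144 from the highest and also did not pass over all features. All 4 thi9 spots were positive, between 0.42 and 1.13, and all 4 liz1 spots were negative, between -0.86 and -0.39. The ratios of the 3 measured transporters of this group thus differed in sign, and only that of vht1 passed over all features.

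**Figure D2:**
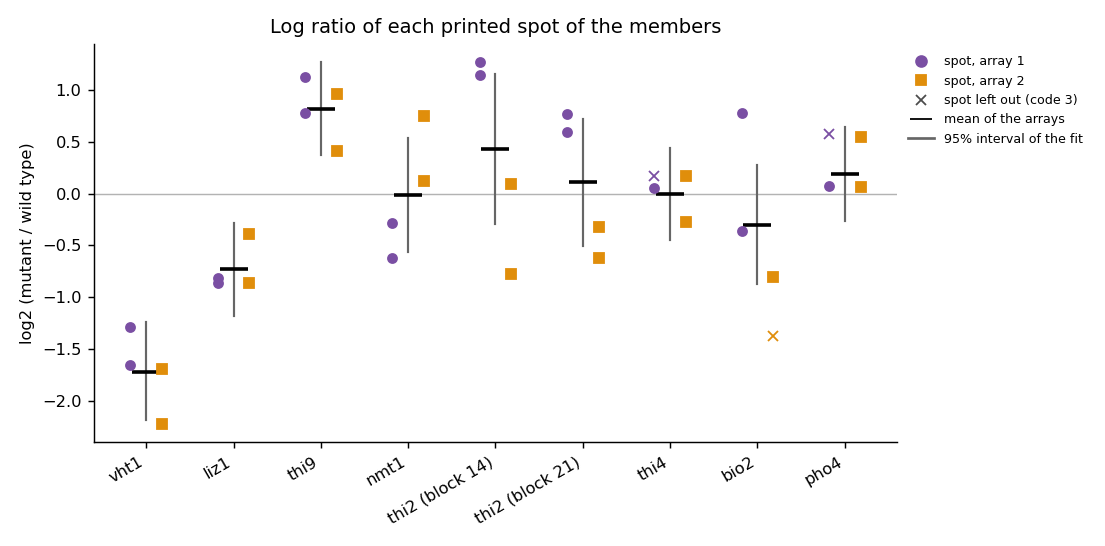
Log2 ratio of mutant over WT for every printed spot of the members, circles for array 1 and squares for array 2, with crosses for spots left out for quality code 3. Black bars are the means of the arrays and grey lines the 95% intervals of the limma fit. The spots of vht1 and liz1 are all below 0 and those of thi9 all above it. For nmt1 and for thi2 in block 21 the spots of the arrays fall on opposite sides of 0. For bio2, thi4 and thi2 in block 14 the array means differ in sign, but spots of 1 array lie on both sides.

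The synthesis genes gave no difference that repeated between arrays. The gene nmt1 (thi3 on the array) encodes the enzyme that makes the pyrimidine part of thiamine. Its signal was 358 and 502 in the mutant, against 491 and 372 in the WT. Neither strain was well above background on either array, and the log2 ratios of -0.46 and 0.43 had opposite signs. No fold is given, and a difference in nmt1 was not detectable at this signal.

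Both features named thi2 (nmt2), the gene of the thiazole branch, were dimmer still. The one printed in block 14 had signals of 322 and 172 in the mutant, against 139 and 218 in the WT. The one in block 21 had 335 and 160 in the mutant, against 209 and 222 in the WT. None of these values was well above background. The ratios were positive on array 1 (1.21 and 0.68) and negative on array 2 (-0.34 and -0.47) at both places, so the sign followed the array, with dye and array not separable. In the authors' deposited table all 8 values of these spots stood at the floor of -2.

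The thi4 gene (SPAC23H4.10c), whose product joins the pyrimidine and thiazole parts and phosphorylates the thiazole, was well above background in every channel. It read 2683 and 2934 in the mutant, against 2590 and 3044 in the WT. On array 1 a single thi4 spot was used, because the other (log2 ratio 0.17) was left out for its quality code. The log2 ratios of thi4, 0.05 and -0.05, were the closest to 0 among the members, with a 95% interval of -0.45 to 0.44. A change larger than that interval was not seen, while a smaller one in either direction remains possible.

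The pho4 gene encodes an acid phosphatase that thiamine represses, like the synthesis genes. It gave 7502 and 4293 in the mutant, against 7153 and 3473 in the WT. On array 1 a single spot was used, because the other (log2 ratio 0.57) was left out for its quality code. With such spots kept the mean log2 ratio was 0.31. The mean log2 ratio was 0.19 ± 0.17 (95% interval -0.26 to 0.64), positive on both arrays and within the interval of no change. The difference between arrays within a strain exceeded the difference between strains.

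The bio2 gene (SPCC1235.02) encodes biotin synthase, which makes biotin from desthiobiotin. Its signal was 3249 and 2764 in the mutant, against 2810 and 4822 in the WT. The log2 ratio was 0.21 on array 1 and -0.80 on array 2, so the arrays disagreed and the mean of -0.30 ± 0.72 (95% interval -0.87 to 0.28) is not a measured decrease. The spots themselves disagreed on array 1, at 0.78 and -0.36. The first of these had a WT local background of 925.5, against 407 at the second. On array 2 the spot at the same place had a mutant background of 3176.5, against 588 at its partner, and was left out for its quality code. In the remaining pair of spots the ratio was -0.36 on array 1 and -0.80 on array 2. This choice of spots was made after their values were seen and gets no test.

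**Figure D3:**
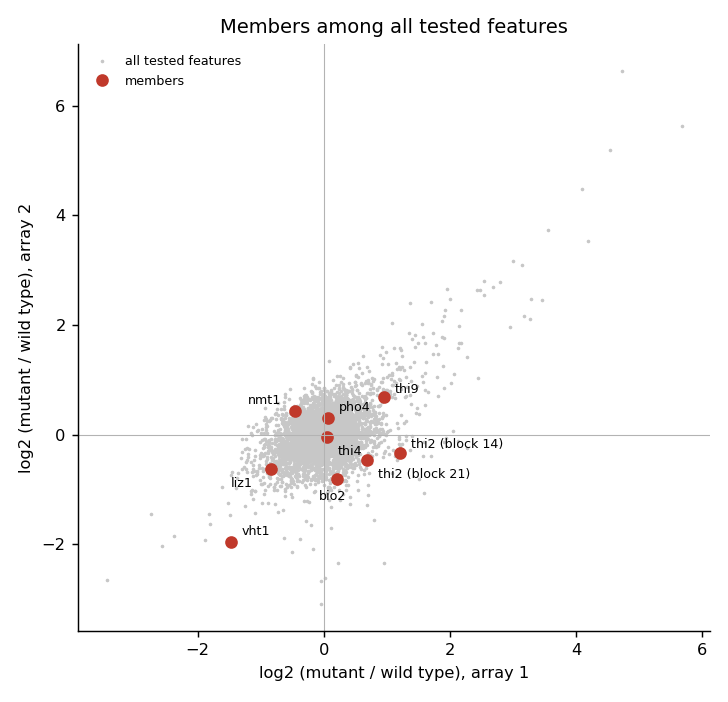
Log2 ratio of mutant over WT on array 1 (horizontal) and array 2 (vertical) for all 4838 tested features (grey) and the 9 member features (red). The vht1 point lies at -1.47 and -1.96, below liz1 at -0.84 and -0.63, and the thi2 features have opposite signs on the arrays.

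Of the 9 member features, 4 had the same sign on both arrays (vht1, liz1, thi9 and pho4), against 59.7% of all tested features. Their median log2 ratio was 0.00 and that of all features 0.01. The members ran from -1.72 for vht1 to 0.82 for thi9. Of the 9 features 3 were not well above background in any channel, and thi2 enters with both its features. Nothing about the genes as a set is read from these values.

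The 5 features closest to vht1 in the plane of the arrays' log2 ratios were SPCC569.01c (-1.88 and -1.93), cbm1 (-1.80 and -1.62), SPAC11D3.02c (-1.49 and -1.46), SPBC1271.07c (-1.82 and -1.44) and Tf2-10 (-1.10 and -1.43). Their distances were 0.41 to 0.66, over 2 arrays. In SPCC569.01c and Tf2-10 the mutant channel stayed near background on both arrays, so their ratios are uncertain. With that channel raised to the lowest signal of features well above background, they were 2.55-fold and 1.39-fold lower. These are estimates without an error. No biotin or other vitamin gene of the lists used here was among them. The lowest mean of a tested list gene was -0.39, so this absence adds nothing to the list values.

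Other genes were taken from fixed lists with 29 genes named by symbol, all of which had a feature, and 25 were tested. The lists cover thiamine, biotin and pyridoxine, with symporter relatives and phosphatase and phosphate uptake genes beside them. Lists for the pantothenate, riboflavin, nicotinate, folate and lipoate routes were planned from gene descriptions. The gene table holds none, so those routes were not covered. The fit called 1 of the 25 higher and none lower, where 2.34% of all features were higher and 0.93% lower; at 25 genes that is close to the background. The gene that rose was pdc201, a thiamine-dependent pyruvate decarboxylase. It read 3929 and 3529 in the mutant, against 1047 and 786 in the WT, a mean log2 ratio of 2.04 ± 0.18 (n = 2, limma adjusted p = 0.000438) or 4.11-fold. On 1 array its WT signal was not well above background.

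None of 5 genes for thiamine synthesis and regulation passed; their means ran from -0.31 to 0.44, with a median of 0.32. The gene of the thiamine transcription factor Thi1 was at 0.44 ± 0.03, that of Thi5 at 0.32 ± 0.04 and thi201 at 0.33 ± 0.61, and the last 2 were well above background on 1 array in each strain. The lowest was the thiamine pyrophosphokinase gene tnr3 at -0.31 ± 0.01, named here after its value was seen. Among 7 tested thiamine-dependent enzymes pdc201 alone passed, with a median of 0.18, and the pyruvate dehydrogenase subunit gene pda1 (-0.39 ± 0.35) and the 2-oxoglutarate dehydrogenase gene kgd1 (0.33 ± 0.07) did not. The genes pdc101 and ilv1 of this list had no value on array 2 because their spots carried the quality code 3. The biotin protein ligase gene bpl1 (0.24 ± 0.15), the acetyl-CoA carboxylase gene cut6 (-0.13 ± 0.10) and the pyruvate carboxylase gene pyr1 (0.09 ± 0.57, with a saturated spot) did not pass either.

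The 7 genes taken as relatives of vht1 and liz1 in the same symporter family had a median of 0.45 and no call. SPBC1683.12 was at 0.65 ± 0.30, dal51 at 0.63 ± 0.19 and SPAC1B3.15c at 0.48 ± 0.50. SPAC1B3.15c was well above background on 1 array in each strain, and SPBC1683.12 on 1 array in the WT. The WT signal of dal51 stayed near background on both arrays, so its 1.55-fold is an uncertain estimate and not a minimum. The interval of the limma fit for its log2 ratio ran from 0.18 to 1.09. The means of the 7 ran from -0.12 to 0.65. In the pyridoxine list the pyridoxal reductase gene plr1 was at -0.30 ± 0.40 and was the single member tested. The phosphate transporter gene pho84 was at 0.27 ± 0.31 and the vacuolar alkaline phosphatase gene pho8 at 0.45 ± 0.14, without a call. At pho84 the spots were saturated on both arrays.

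**Figure D4:**
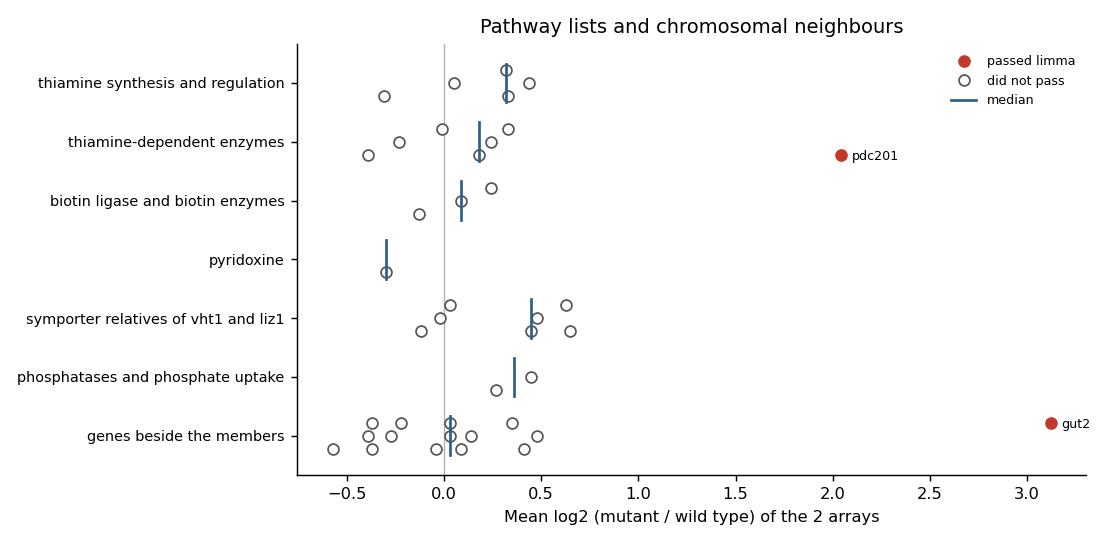
Mean log2 ratio of mutant over WT for the 25 tested genes of the vitamin lists and the 15 tested genes that flank members, with the median of each group as a blue line and filled red points for features that passed limma at an adjusted p under 0.05. The gene pdc201 at 2.04 and the nmt1 neighbour gut2 at 3.12 are the filled points.

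The genes that flank the measured members on the chromosome gave 15 tested features at 16 places, with a median of 0.03. Of these 1 passed, against 3.27% of all tested features, and at 15 features that is close to the background. Next to nmt1 lies gut2, the gene of a mitochondrial glycerol-3-phosphate dehydrogenase, which rose to 10040 and 9355 in the mutant, against 1136 and 1097 in the WT. Its log2 ratio was 3.12 ± 0.04 (n = 2, limma adjusted p = 3.022e-05), while nmt1 was not well above background in either strain. The gene hel2, on the other side of nmt1, was at -0.37 ± 0.42.

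Beside vht1 the flanking genes were SPAC1B3.15c (0.48 ± 0.50), itself a relative of vht1, and clr2, a gene of the heterochromatin silencing machinery (-0.39 ± 0.31). Neither was called, and the mutant signal of clr2 was not well above background. That of SPAC1B3.15c was well above background on 1 array in each strain. Beside liz1, syj1 was at -0.57 ± 0.15 and lower on both arrays, though not called (limma adjusted p = 0.205), and SPBC4B4.12c, with a mutant channel near background on both arrays, gave 0.38 and -0.93. Beside thi9, the methionine synthase gene met26 was at 0.09 ± 0.02, with saturated spots, and SPAC9.11 at 0.14 ± 0.20 was not above background. The neighbours of thi2 (tda1 and sec9), thi4 (cnl2 and cdb4), bio2 (cue2) and pho4 (eca39 and apq12) ranged from -0.37 to 0.41 and none was called.

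**Figure D5:**
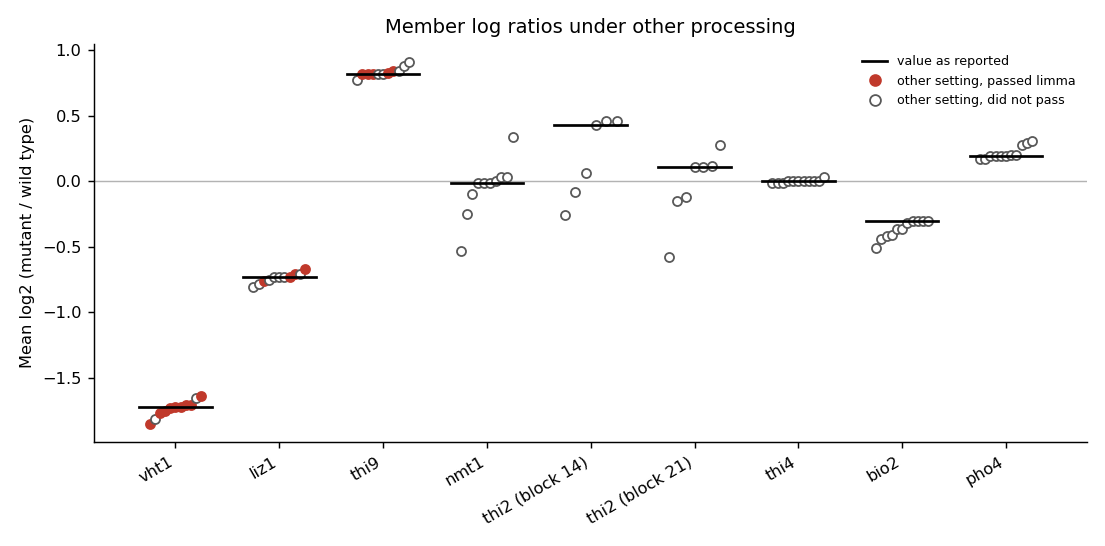
Mean log2 ratio of mutant over WT of each member as reported (black line) and under each other processing that gave a value (points, filled red where the feature passed limma). The vht1 points lie between -1.85 and -1.64, the thi9 points between 0.77 and 0.91 and the liz1 points between -0.81 and -0.67, whereas nmt1 and both thi2 features change sign.

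The direction of the 3 transporter genes did not change with the processing. The same held for bio2 (-0.51 to -0.30) and pho4 (0.17 to 0.31), so a kept sign is not particular to the transporters. For bio2 the arrays had opposite signs, so a sign kept over settings does not show that a difference repeats. Over 11 other settings vht1 ranged from -1.85 to -1.64 and was called in 9 of them. Liz1 ranged from -0.81 to -0.67 and was called in 4, and thi9 from 0.77 to 0.91 and was called in 5. By contrast, nmt1 ranged from -0.53 to 0.34 over 10 settings, the thi2 feature of block 14 from -0.26 to 0.46 over 6 and that of block 21 from -0.58 to 0.28 over 7. No sign can be given to these dim features.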

How the data were processed

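Per the file headers, the deposited scanner tables hold intensity values per spot, foreground and local background in 2 channels, and a quality code (0, 2 or 3) whose meaning is not stated there. The authors' deposited log10 ratios were made by Lowess per array, per the series design text; against the scanner ratios of spots above background they correlated at 0.78 and 0.95, as first over second channel. Their floor of -2 was treated as missing. From the median signals, normexp (offset 50) and 1 loess curve per array were applied, with control spots and code 3 spots at weight 0, code 3 spots were left out, and the spots of each printed position were averaged. Names printed at more than 1 position (29) were kept apart. Features with a value on both arrays (4838) were fitted with limma 3.58.1 in R 4.3.3 (1 residual degree of freedom, Benjamini-Hochberg, threshold 0.05). Channel signals came from loess and Aquantile normalisation. The test was run on data simulated from its own fitted model, without dye or array effects. That checks the code and not whether the model holds for these arrays. Names came from the ASM294v3 gene table. Members and lists were chosen with earlier results of these data known. Named are all members, list genes that passed, the 3 largest ratios per list, the flanking genes and the 5 features nearest to vht1. A planned comparison with the closest proteins was not run.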

Additional observations from a re-analysis of the deposited data

How the results depend on the processing

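The number of member features called was 1 of 9 tested as reported. It was 3 of 8 without background correction, and 3 of 9 with print-tip loess and with mean signals. Without spots dim in both channels it was 3 of 6. In these settings liz1 and thi9 joined vht1. With code 3 spots kept it was 2 of 9, where thi9 joined. It was 0 of 9 with median centring and 0 of 7 with the authors' deposited values. There vht1 was at -1.65 and -1.81 and missed the threshold. Calls over all features were 158 of 4838 tested as reported (113 higher and 45 lower). They were 376 of 4814 without background correction (205 and 171) and 412 of 4838 with print-tip loess (215 and 197). With mean signals they were 377 of 4838 (197 and 180), and without dim spots 285 of 3927 (158 and 127). With code 3 spots kept they were 223 of 4984 (144 and 79). Fewer were called with plain subtraction, at 61 of 4807 (49 and 12), and with median centring, at 38 of 4838 (33 and 5). The authors' values gave 32 of 4960 (28 and 4). Calls over all features thus also rose where member calls rose, so nothing is read from the member counts. The calls in the vitamin lists went from 1 of 25 to 3 of 24 without background correction and 3 of 25 with print-tip loess. They were 2 of 20 without dim spots, and pdc201 was called in all 11 other settings. The cause was not tested. Without 1 array there is no residual degree of freedom, so only values are given: vht1 was -1.96 without array 1 and -1.47 without array 2, and bio2 was -0.80 and 0.21. The other processing changed the sign of no called member. Each log ratio already pairs the strains within its array, and no further pairing was fitted. The 2 arrays limit all values, and for nmt1 and thi2 the signal over background does.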

Other observations

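The array name car1 can stand for the arginase gene or, as a synonym in the gene table, for the pyridoxine transporter gene bsu1, and it was printed at 2 positions that differed in brightness. In block 10 the signal was 378 and 532 in the mutant, against 242 and 401 in the WT, not well above background. In block 21 it was 5063 and 3228 in the mutant, against 4416 and 4938 in the WT, with log2 ratios of 0.20 and -0.61. Neither was called, and the name does not tell which gene each position holds. The authors' deposited values put all 4 spots of car1 at the floor of -2 on both arrays, although those of block 21 had raw signals of 3001 to 4831 in the mutant and 3372 to 10456 in the WT. Of 29 gene names with 4 or more spots, 4 had every spot at that floor, thi2 and car1 among them, and of 4925 names with 2 spots, 4 did. For the block 21 spots of car1 the deposited -2 is therefore not the ratio of the scanner signals.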
